A study of Mus musculus with 6 samples.

Results

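Peroxisome proliferator-activated receptors (PPARs) and their target genes were examined in RAW 264.7 cells, a mouse macrophage-like tumour line, after an antisense oligonucleotide against the long noncoding RNA Mist. The members are the receptor genes Ppara, Ppard and Pparg, the partner receptor gene Rxra, and the target genes Cpt1a, Angptl4, Pdk4, Acsl1, Acadvl and Lpl. A member was read at probe sets listed with that gene alone, which 9 of the 10 members have, of 22180 genes in all. Acsl1, the acyl-CoA synthetase of the set, has none, so its expression was not analysed here, and Lpl has a second probe set.

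The cells of each sample received 50 nM of a GapmeR, a locked nucleic acid oligonucleotide through which RNase H cleaves a chosen RNA, and were harvested for RNA after 48 h. In 3 samples the GapmeR targeted Mist (Mist-targeted), and in 3 samples it was a non-targeting control (Control), so both groups carry the transfection reagent and a GapmeR. All samples are the same line, and the labels name a single GapmeR against Mist. Whether the replicates were grown separately is not stated, so p-values reflect only the spread between these samples and that spread may be technical. The annotation used here names no probe set Mist, so the groups rest on the labels. Expression was measured on 6 arrays as log2 values, with array medians between 4.47 and 4.50; no background measure was used here, and the number of arrays limits the precision. The 10 macrophage markers lay between 4.49 and 12.86, with Cd68, Mpeg1 and Csf1r above 10 on every array and Mertk lowest. Their summed log2 values were 98.9 to 99.8 on the Mist-targeted arrays and 98.2 to 98.6 on the Control arrays. Of the 10 differences, Mist-targeted less Control, 5 were above 0 and 5 below, with a median of -0.023. In these sums 1 of the 10, the IgG receptor gene Fcgr1, rose (log2 difference 1.01, limma, adjusted p = 0.012), beside 0.415% of all genes called. The part of Fcgr1 in the results on other genes was not tested. The 16 measured markers of adipocytes, hepatocytes, fibroblasts and lymphocytes lay between 3.30 and 4.96, and 0 of the 16 passed the test.

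PPARs are nuclear receptors that fatty acids and their derivatives activate. Each binds DNA as a pair with a retinoid X receptor, at direct repeats of a short hexamer, and raises transcription of genes for fatty acid uptake, storage and oxidation. Fatty acid binding proteins, whose genes include Fabp5 near Mist, carry ligands to these receptors. In macrophages PPARγ is known for lipid uptake and for restraint of inflammatory genes.

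None of the 9 measured members changed at an adjusted p under 0.05 when Mist was targeted (limma, Benjamini-Hochberg over all probe sets). Over all genes, 0.415% passed this test. At an unadjusted p under 0.05 there was 1 of the 9, Ppard, where 11.0% of all genes lay. The groups did not overlap in 1 of the 9, again Ppard, beside 20.0% of all genes. Differences (log2, Mist-targeted less Control) had a median of -0.0071, against 0.0069 over all 22180 genes. The sign of that median turned on leaving out any 1 of 5 of the 6 arrays, with values up to 0.043 (without Control replicate 1), and held without Control replicate 3. Positive values were found for 4 members and negative values for 5, though 4 of the 9 (Ppara, Rxra, Angptl4 and Acadvl) changed sign under at least 1 alternative. The 95% intervals of the 9 genes reached from -0.48 (Ppard) to 0.46 (Pdk4), or 0.719-fold to 1.38-fold, so that none held a 2-fold change. Ppara, Pparg, Pdk4 and in part Angptl4 lay in the range of the markers of other cell types, so their intervals may understate a change in the transcript. In bulk RNA, fewer cells with a transcript and less of it per cell cannot be told apart.

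**Figure D1:**
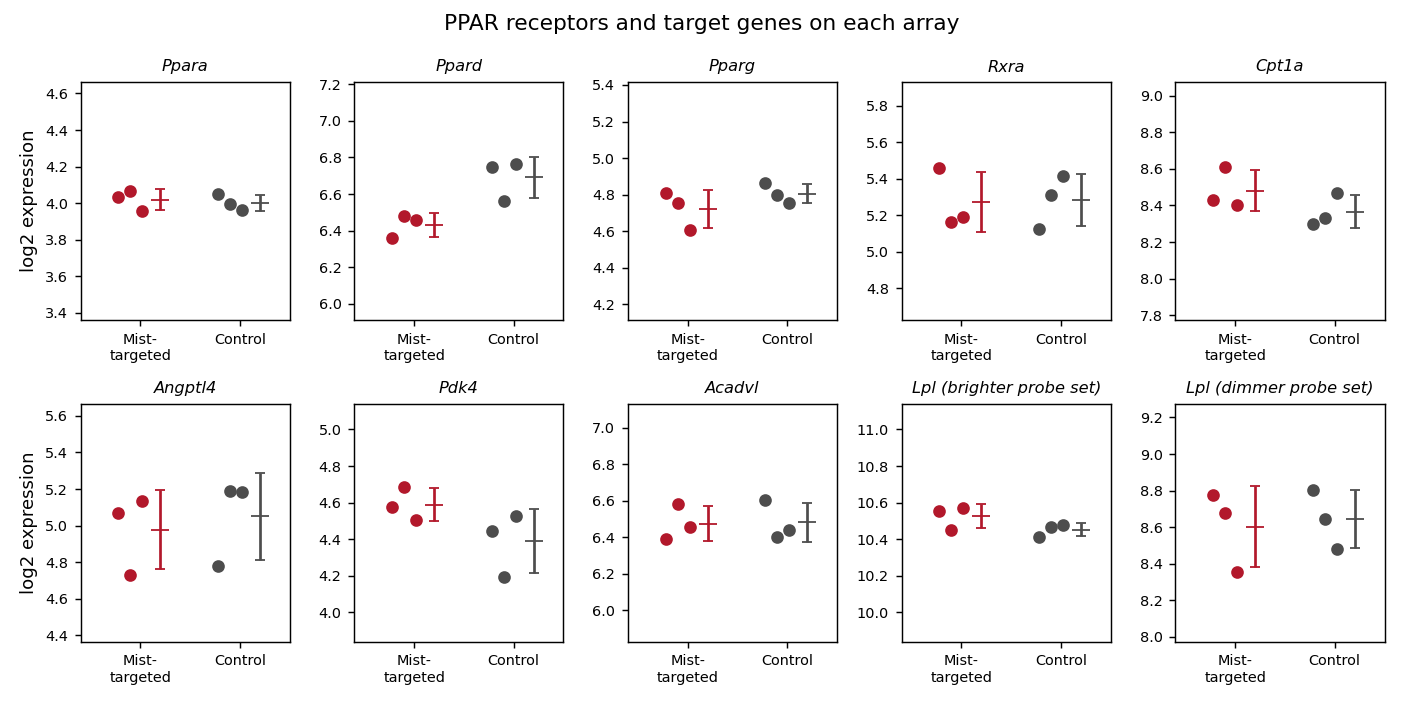
Log2 expression of the 9 measured members on each array, with Mist-targeted arrays in red and Control arrays in grey; dots are replicates 1 to 3 from left to right, and bars are the mean ± SD (n = 3). Every panel spans the same log2 range. The groups overlap in every panel except that of Ppard, whose Mist-targeted arrays lie between 6.36 and 6.48 and whose Control arrays lie between 6.56 and 6.76.

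Among the receptors, Ppard encodes PPARδ, the form found in most tissues. Its probe set had 6.36, 6.48 and 6.46 on the Mist-targeted arrays, against 6.75, 6.56 and 6.76 on the Control arrays. All 3 Mist-targeted arrays lay below the lowest Control array, that of replicate 2. The difference was -0.26 ± 0.093 (SE, n = 3 per group; limma, adjusted p = 0.40), with a 95% interval of -0.48 to -0.043, and it did not pass. A further probe set listed with Ppard and another gene together was not used.

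Pparg encodes PPARγ, the receptor of fat cells and of lipid-laden macrophages. Values were 4.81, 4.75 and 4.61 on the Mist-targeted arrays, against 4.86, 4.80 and 4.76 on the Control arrays. Mist-targeted replicate 3 was the lowest of the 6 and the groups overlapped. The difference of -0.083 had a 95% interval of -0.29 to 0.13 (limma, adjusted p = 0.85), so a fall beyond 0.817-fold or a rise beyond 1.09-fold lay outside it. The difference was -0.025 without Mist-targeted replicate 3 and -0.12 without Mist-targeted replicate 1. Both groups sat just above the array medians and within the 3.30 to 4.96 of the markers of other cell types. At that level the interval may understate a change in the transcript.

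Ppara encodes PPARα, known for control of fatty acid oxidation in liver. It had 4.03, 4.07 and 3.96 on the Mist-targeted arrays and 4.05, 3.99 and 3.96 on the Control arrays. All 6 values were below the array medians and the groups overlapped almost fully, with a difference of 0.018 ± 0.081 (SE; limma, adjusted p = 0.98). At such a level a difference may be understated.

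Rxra, the gene of the partner receptor RXRα, had 5.46, 5.16 and 5.19 on the Mist-targeted arrays, against 5.13, 5.31 and 5.41 on the Control arrays. Replicate 1 was the highest Mist-targeted array and the lowest Control array. The difference was -0.012 ± 0.12 (SE), with a 95% interval of -0.29 to 0.27 (limma, adjusted p = 0.99).

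Cpt1a encodes the carnitine palmitoyltransferase that admits long-chain fatty acids to mitochondria. It had 8.43, 8.61 and 8.40 on the Mist-targeted arrays and 8.30, 8.33 and 8.47 on the Control arrays. All 3 Mist-targeted arrays lay above the Control mean of 8.36 ± 0.090 (SD, n = 3), but Control replicate 3 was higher than 2 of them. Its difference was 0.12 ± 0.097 (SE; 95% interval -0.11 to 0.34; limma, adjusted p = 0.79), or 0.051 without Mist-targeted replicate 2.

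Acadvl encodes the very long-chain acyl-CoA dehydrogenase, which takes the first oxidation step after that entry. Its values were 6.39, 6.58 and 6.45 on the Mist-targeted arrays and 6.60, 6.40 and 6.44 on the Control arrays, so the groups shared their whole range apart from the ends. The difference of -0.0071 ± 0.097 (SE) had a 95% interval of -0.23 to 0.22 (limma, adjusted p = 0.99).

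Pdk4 encodes a pyruvate dehydrogenase kinase, which holds back glucose oxidation when fatty acids are used. It had 4.57, 4.69 and 4.51 on the Mist-targeted arrays, against 4.45, 4.19 and 4.53 on the Control arrays. Control replicate 2 was the lowest of the 6, and Control replicate 3 lay above Mist-targeted replicate 3. The difference of 0.20 ± 0.11 (SE; 95% interval -0.062 to 0.46; limma, adjusted p = 0.65) was the highest of the 9 and did not pass. Without Control replicate 2 it was 0.10. The Control mean of Pdk4, 4.39, was below the array medians. All 6 values lay within the 3.30 to 4.96 of the markers of other cell types, where a difference may be understated.

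Lpl encodes lipoprotein lipase, the secreted enzyme that frees fatty acids from lipoprotein triglycerides. Its brighter probe set had 10.56, 10.45 and 10.57 on the Mist-targeted arrays and 10.41, 10.47 and 10.48 on the Control arrays. Mist-targeted replicate 2 lay inside the Control range, and the difference was 0.072 with a 95% interval of -0.12 to 0.26 (limma, adjusted p = 0.86), the bounds of a 0.922-fold to 1.20-fold change; without Mist-targeted replicate 2 it was 0.11. The dimmer probe set, at 8.78, 8.68 and 8.36 on the Mist-targeted arrays and 8.80, 8.65 and 8.48 on the Control arrays, had a difference of -0.041 ± 0.14 (SE). The probe sets thus had opposite signs, and neither passed.

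Angptl4 encodes a secreted inhibitor of lipoprotein lipase and is a target of PPARs and of hypoxia-inducible factors. It had 5.07, 4.73 and 5.14 on the Mist-targeted arrays, against 4.78, 5.19 and 5.18 on the Control arrays. One array in each group was low, Mist-targeted replicate 2 and Control replicate 1, which gave it the widest spread of the 9 members, with SDs of 0.22 and 0.24 (n = 3 each). Its difference was -0.072 ± 0.16 (SE; 95% interval -0.43 to 0.29; limma, adjusted p = 0.94), and it was -0.21 without Control replicate 1 and 0.053 without Mist-targeted replicate 2. The low array of each group lay within the 3.30 to 4.96 of the markers of other cell types, where a difference may be understated.

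**Figure D2:**
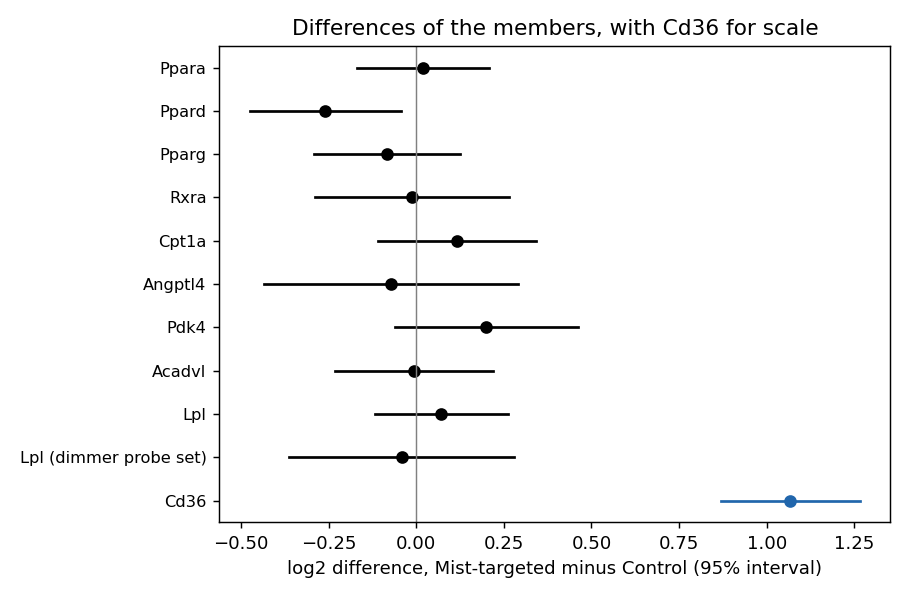
Log2 difference, Mist-targeted minus Control, for each probe set of the 9 members (black) and for Cd36 (blue), with 95% intervals from limma. Intervals of the members cross 0 except that of Ppard, which lies between -0.48 and -0.043, and the interval of Cd36 lies between 0.87 and 1.27.

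The other PPAR target genes, a list of 34 of which 30 were measured, held 1 gene that passed. Cd36, which encodes a scavenger receptor that takes up fatty acids and oxidised lipoproteins, had 11.33, 11.22 and 11.31 on the Mist-targeted arrays, against 10.30, 10.21 and 10.15 on the Control arrays. No array came near the other group. It rose 2.10-fold (log2 difference 1.07 ± 0.085, SE; limma, adjusted p = 0.0093), and its interval, 0.87 to 1.27, lay above the highest bound of any member, 0.46. The size held on leaving out each array (1.03 to 1.11), but the call ended in 5 of those 6 fits: the adjusted p was 0.059 without Mist-targeted replicate 1, 0.074 without Mist-targeted replicate 3, and 0.051, 0.077 and 0.070 without Control replicates 1, 2 and 3.

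The remaining 29 of the 30 did not pass, beside 0.415% called over all genes. An unadjusted p under 0.05 was found for 5 of the 30, beside 11.0% of all genes. Groups did not overlap in 7 of the 30 (20.0% of all genes). Signs were mixed, with 13 above 0, 17 below 0 and a median of -0.012, against 0.0069 over all genes. Several of the 30, such as Ucp3, Vldlr, Abcd2 and Ehhadh, lay within the 3.30 to 4.96 of the markers of other cell types. Ehhadh is among the 5 with an unadjusted limma p under 0.05, and Adipoq is itself an adipocyte marker. At that level a difference may be understated, which limits the count of signs and the median. Acot2, a mitochondrial acyl-CoA thioesterase gene, had 9.19, 9.38 and 9.23 on the Mist-targeted arrays and 9.92, 9.99 and 9.83 on the Control arrays. Those groups lay well apart, with a difference of -0.65 ± 0.093 (SE; limma, adjusted p = 0.055), while Acot1, the cytosolic thioesterase of the same family, had a difference of 0.021 ± 0.14. Acot1 had 5.22, 5.03 and 4.86 on the Mist-targeted arrays and 5.23, 4.98 and 4.84 on the Control arrays. That is around the top of the marker range, where a difference may be understated. The probes of Acot1 and Acot2 may share sequence, since the genes are close relatives.

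Tgm2, the transglutaminase 2 gene, differed by 0.27 ± 0.099 (adjusted p = 0.42), and Plin2, which coats lipid droplets, by -0.094 ± 0.10 (adjusted p = 0.85; -0.025 without Mist-targeted replicate 1). Of the ligand carriers, Fabp4 had 9.06, 8.56 and 8.87 on the Mist-targeted arrays and 9.57, 9.38 and 9.29 on the Control arrays (difference -0.58 ± 0.14, limma, adjusted p = 0.19). Fabp5, on no list here, had a difference of -0.54 ± 0.089 at its brightest probe set (adjusted p = 0.076), and its 3 other probe sets had -0.55, -0.72 and -0.83, of which that at -0.72 fell (limma, adjusted p = 0.027). Neither gene overlapped between groups, beside 20.0% of all genes that did not overlap.

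Some of these calls turned on which probe sets were tested. Limma on only the probe sets listed with 1 gene called 3.05% of all genes, and there the adjusted p was 0.0026 for Acot2, 0.030 for Fabp4, 0.0063 for Fabp5 and 7.4e-05 for Cd36. None of the 9 members passed in that fit either, with adjusted p = 0.20 for Ppard, 0.44 for Pdk4 and 0.67 for Cpt1a the lowest of the 9.

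**Figure D3:**
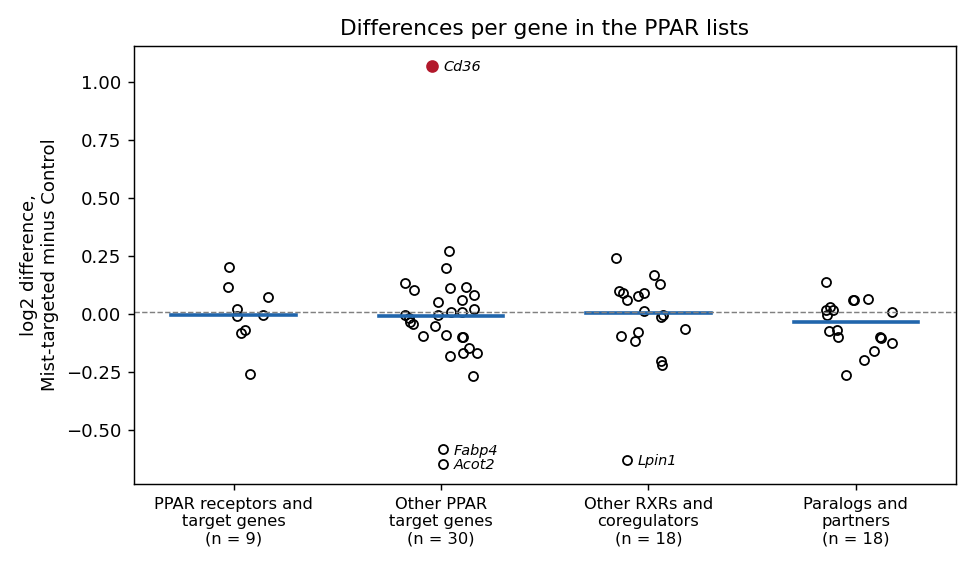
Log2 difference, Mist-targeted minus Control, of each gene of the members and of the 3 further lists, read at 1 probe set per gene; the filled red dot passed limma at an adjusted p under 0.05, open dots did not, blue bars are list medians and the dashed line is the median of all genes. Cd36 stands alone at 1.07, and Fabp4, Acot2 and Lpin1 lie between -0.65 and -0.58.

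Of the other retinoid X receptors and the coregulators of PPARs, 18 of 20 were measured and 0 passed, beside 0.415% of all genes. Limma gave an unadjusted p under 0.05 for 3 of the 18 (11.0% of all genes), and groups did not overlap in 5 of the 18 (20.0% of all genes). The list was split evenly, 9 above 0 and 9 below 0, with a median of 0.0020. Rxrg, Ppargc1a and Prdm16 lay within the 3.30 to 4.96 of the markers of other cell types. At that level a difference may be understated, which limits the count of signs and the median. Lpin1 encodes lipin 1, a phosphatidate phosphatase that also coactivates PPARα with PGC-1α. It had 7.22, 7.56 and 7.45 on the Mist-targeted arrays, against 8.06, 8.10 and 7.97 on the Control arrays. These groups lay apart (-0.63 ± 0.11, SE; limma, adjusted p = 0.080, or 0.0055 among probe sets listed with 1 gene). Pprc1, a coactivator gene related to PGC-1, differed by 0.24 ± 0.087 (adjusted p = 0.41), the coactivator gene Ncoa2 by -0.20 ± 0.078 (adjusted p = 0.44) and the acetyltransferase gene Ep300 by 0.17 ± 0.076 (adjusted p = 0.55). Ppargc1b, which encodes PGC-1β, had a difference of -0.0074 ± 0.11.

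Paralogs and partners of the member enzymes showed no call either. Of 23 genes 18 were measured, and 0 passed at the probe set read for the gene (limma), beside 0.415% of all genes. An unadjusted p under 0.05 was found for 0 of the 18 (11.0% of all genes), and groups did not overlap in 3 of the 18 (20.0% of all genes). The list had 8 above 0, 10 below 0 and a median of -0.037. Cpt1c, Pdk2 and Lipg lay within the 3.30 to 4.96 of the markers of other cell types. Acsl6, Gpihbp1 and Apoc2 lay around the upper end of that range. At that level a difference may be understated, which limits the count of signs and the median. Pdk1, a paralog of Pdk4 known as a target of hypoxia-inducible factors, had 7.20, 7.55 and 7.54 on the Mist-targeted arrays, against 7.75, 7.76 and 7.58 on the Control arrays. Its difference was -0.26 ± 0.12 (adjusted p = 0.54), and a dimmer probe set had -0.52 ± 0.11 (adjusted p = 0.15, or 0.022 among probe sets listed with 1 gene). On the Mist-targeted arrays that dimmer probe set lay within the same marker range, where a difference may be understated. Pdk3 differed by 0.14 ± 0.081 (adjusted p = 0.67). The lipase chaperone gene Lmf1, whose product matures lipoprotein lipase, differed by -0.20 ± 0.12 (adjusted p = 0.69), and Apoc2, the lipase's activator, by -0.16 ± 0.096 (adjusted p = 0.68). Without Mist-targeted replicate 1 the difference was -0.083 for Lmf1 and -0.15 for the brighter Pdk1 probe set.

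Promoter sequence was set beside these values for AGGTCA, the hexamer of the PPAR response element, searched on both strands in the 250 bases before each start in the RefSeq table (GRCm38.p6). The table holds 12 starts of 8 members, among them 2 of Acsl1, whose expression was not measured; Angptl4 and Lpl were not searched. Of the 12 starts, 5 held the hexamer, in Pparg, Rxra, Cpt1a and Acadvl, against 14.0% of all 32851 starts. The full direct repeat, 2 such hexamers with 1 base between, was at 0 of the 12 and at 0.0335% of all starts. ACGTG, the core of the hypoxia response element, was at 2 of the 12 (Ppard and Acadvl) and at 16.6% of all. A match is letters only and does not show a bound site. Variants of the hexamer and bases outside these 250 were not searched, so no match does not show that an element is absent. The windows below show, 5′ to 3′ along the gene, each hexamer in capitals (TGACCT where it lies on the other strand) with up to 30 bases on each side, for the members that did not pass and for Cd36, which rose.
Cd36 (chr5:17836089-17836146, minus strand): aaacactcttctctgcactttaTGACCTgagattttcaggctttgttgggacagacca
Cpt1a (chr19:3323177-3323242, plus strand): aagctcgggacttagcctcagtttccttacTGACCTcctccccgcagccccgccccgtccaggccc
Acadvl (chr11:70015480-70015545, minus strand): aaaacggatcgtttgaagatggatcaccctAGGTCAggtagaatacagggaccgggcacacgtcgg
Pparg, start 1 (chr6:115361086-115361143, plus strand): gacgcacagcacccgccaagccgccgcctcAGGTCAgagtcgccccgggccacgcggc
Pparg, start 2 (chr6:115362310-115362348, plus strand): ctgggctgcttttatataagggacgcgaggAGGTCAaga
Rxra, start 2 (chr2:27709175-27709279, plus strand): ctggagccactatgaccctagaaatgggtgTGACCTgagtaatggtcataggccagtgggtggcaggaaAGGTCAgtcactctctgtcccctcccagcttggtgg

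The hexamer begins 228 bases before the start in Cd36, 94 in Cpt1a and 87 in Acadvl. Cd36, with a log2 difference of 1.07, and Cpt1a and Acadvl, with differences of 0.12 and -0.0071, thus each hold 1 hexamer in this window. Pdk4, Ppard and Ppara hold 0, with differences of 0.20, -0.26 and 0.018. Pparg, with a difference of -0.083, holds 1 at start 1, 1 at start 2 and 0 at start 3. Rxra, with a difference of -0.012, holds 0 at start 1 and 2 at start 2.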

How the data were processed

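RNA from 3 Mist-targeted and 3 Control samples of RAW 264.7 cells was labelled with biotin and read on 6 arrays. The deposited values are log2 expression per probe set, 1 column per array. The submitters' processing notes list RMA, which corrects background and quantile-normalizes arrays, and Partek, with no version or setting; quantile normalization would reduce a change shared by most transcripts. Values were used as deposited, and 0 sample columns went unused. The platform annotation gave 23521 of 41345 probe sets 1 gene, 1814 several and 16010 none. Control probe sets were not identified, so all were tested. A gene was read at its brightest probe set over all 6 arrays.

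Differences were fitted in R 4.3.3 by limma 3.58.1 (lmFit with a group term, then eBayes; two-sided), with Benjamini-Hochberg adjustment over all 41345 probe sets and a call at an adjusted p under 0.05; the fit was tested on simulated data. An exact permutation test of 3 against 3 arrays cannot go below p = 0.1, so genes were read from this model. Samples were grouped by the labels. Arrays correlated at 0.988 to 0.991 inside a group and at 0.986 to 0.989 across groups, and 0 pairs of columns were identical.

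The members, the lists (coregulators, other targets, paralogs and partners, and cell type markers) and the tests were chosen with earlier results of these data known. Named are all members, the genes of each list that passed, filled up to 4 by smallest p, and Cd36, Fabp4, Fabp5, Plin2, Ppargc1b, Pdk1 and Ucp2, of which Ucp2 has no probe set of its own here and was not analysed. Acot1 was named after its value was seen. Alternatives were a replicate block, eBayes with trend and robust, no moderation, dropping the 40% dimmest probe sets, listed probe sets only, quantile normalization, median centring, array weights, the mean of a gene's probe sets and leaving out each array. Promoters were searched in pandas 2.3.3 (Python 3.11.15), and plots were drawn in matplotlib 3.10.9.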

Additional observations from a re-analysis of the deposited data

How the results depend on the processing

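None of the 9 members passed under any of the 15 alternatives, where the lowest adjusted p was 0.20 (Ppard, listed probe sets only). Ppara was dropped with the dimmest probe sets, so it had 14 alternatives and was not in the members' median of that fit. Of 134 member values under alternatives, 11 had the other sign, in Acadvl, Rxra, Ppara and Angptl4. The members' median lay between -0.014 and 0.043, with the other sign under 6 of the 15 alternatives. Of 60 medians of the 4 lists, 11 moved by at least the SD of the list's median over the 3 Mist-targeted arrays. The Control arrays were not part of that SD. Ppard stayed between -0.32 and -0.22. The number of probe sets called, 105, was 287 with trend and robust, 161 without the dimmest probe sets, 713 among listed probe sets only, 0 without moderation and 2 to 40 on leaving out 1 array. Other PPAR targets called, 1 at first, were 2, 2, 3 and 0 in the same 4 fits and 0 to 1 on leaving out 1 array; other coregulators called, 0 at first, were 1 with trend and robust and 1 among listed probe sets only. The causes of these shifts were not tested; the fit on listed probe sets changes both the number of tests and the variance estimate.

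The groups share replicate numbers, but no label says what a number marks. Same-numbered arrays deviated together by r = 0.201, 0.0957 and 0.0325. Of the 6 arrays, 5 correlated best with their own number, and Control replicate 3 did not. Whether a number marks a shared batch was not tested. With the replicate block 0 probe sets and 0 other PPAR targets were called, and Cd36 had an adjusted p of 0.091.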
